A study of Mus musculus with 6 samples.

Results

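The genes described here make, package and clear the fast transmitters GABA, glycine and glutamate. They were taken from the count table by gene name, under a rule that uses no measured value. The list itself was chosen with earlier results of these data known. All 9 were found among the 54532 genes listed: Gad1, Gad2, Slc6a5, Slc32a1, Slc6a9, Slc6a11, Slc17a6, Slc17a7 and Slc17a8. RNA of sciatic nerves (cell type given as nerve cell) from mice at postnatal day 3 was sequenced, with 1 library from each of 3 control mice (WT) and 3 Dok6 mutant mice (Dok6 KO). Both genotypes were kept on a C57BL/6 background. The mutants lacked exon 3 of Dok6 in the whole body, after floxed mice had been crossed with EIIA-cre mice, whose Cre acts in the early embryo, so that the deletion was not limited to neurons or to glia. The libraries held between 17699904 and 18678170 counts, and the smallest level taken as detectable, 3 counts, was between 0.161 and 0.169 in units of CPM, the library-scaled count. That floor covers counting error only, whereas the 95% intervals of fold changes given below come from the fit over mice and include the spread between them. Dok6 itself was at 17.9, 11.9 and 17.5 CPM in the controls and at 7.26, 5.78 and 7.15 CPM in the mutants. Its log2 fold change was -1.23 (adjusted p = 0.0118 in the quasi-likelihood test of edgeR, adjusted by Benjamini-Hochberg). The table counts reads over the whole gene, including exons that the deletion leaves in place, and which exons the remaining reads came from was not tested.

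GABA is made from glutamate by the glutamate decarboxylases GAD67 (Gad1) and GAD65 (Gad2). VGAT (Slc32a1) loads both GABA and glycine into synaptic vesicles, whereas VGLUT2, VGLUT1 and VGLUT3 (Slc17a6, Slc17a7 and Slc17a8) load glutamate. Transmitter is removed by carriers of the plasma membrane, of which GlyT2 (Slc6a5) belongs to glycine neurons of the spinal cord and brainstem, and GlyT1 (Slc6a9) and GAT3 (Slc6a11) are mainly carried by astrocytes. In the peripheral nervous system, glutamate is the transmitter of the sensory neurons of the dorsal root ganglia (DRG), whose axons run in the sciatic nerve and whose cell bodies do not.

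The tissue label was compared with lists of marker genes, and the libraries went against it in part. No library had less than 1 CPM of any of 10 central neuron markers, whose sum ranged from 6400 to 7374 CPM in controls and from 5800 to 6523 CPM in mutants. The same level was reached throughout by all 12 astrocyte markers and by 10 of 12 genes of spinal inhibitory neurons, while Ptf1a had no count. Schwann cell markers summed to 315 to 1876 CPM in controls and 656 to 6963 CPM in mutants, motor neuron markers to 290 to 389 and 364 to 652, oligodendrocyte markers to 630 to 2454 and 697 to 4096, endothelial and pericyte markers to 266 to 422 and 423 to 588, and nerve fibroblast markers to 342 to 1239 and 2079 to 3129 CPM. In the controls, the astrocyte gene Gfap was at 243, 189 and 397 TPM, the count scaled for gene length and depth, and the spinal inhibitory transcription factor gene Pax2 at 85.6, 81.3 and 70.0 TPM. The label is used below as given, and the tissue source of the transcripts was not tested.

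Among the 9 genes, 2 passed the test, where 14.6% of all genes tested did. Slc17a7 was higher in Dok6 mutant nerves, and Slc32a1 was lower, close to the threshold and with its call lost in 10 of 14 alternative settings. These 2 genes are shown with the 250 bases before their RefSeq start (GRCm38.p6, plus strand), beside Slc17a6, the other main vesicular glutamate transporter, which did not pass the test. The windows lie at chr7:45163671-45163920 for Slc17a7, chr7:51621580-51621829 for the first of the starts listed for Slc17a6, and chr2:158610508-158610757 for Slc32a1. Capitals mark matches on either strand to the 4 motifs searched. These were TATAAA for the TATA box and CCAAT for the box of that name, with GGGCGG for the GC box and CAGCTG for an E-box.
Slc17a7: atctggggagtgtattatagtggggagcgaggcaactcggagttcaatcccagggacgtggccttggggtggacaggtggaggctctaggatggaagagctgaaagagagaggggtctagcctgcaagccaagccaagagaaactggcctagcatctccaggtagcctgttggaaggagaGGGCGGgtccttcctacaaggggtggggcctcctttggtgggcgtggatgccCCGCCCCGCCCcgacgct
Slc17a6: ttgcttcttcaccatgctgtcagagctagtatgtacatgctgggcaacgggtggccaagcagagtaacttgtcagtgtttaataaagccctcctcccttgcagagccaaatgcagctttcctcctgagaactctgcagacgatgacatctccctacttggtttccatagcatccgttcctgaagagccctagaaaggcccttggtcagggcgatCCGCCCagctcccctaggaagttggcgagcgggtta
Slc32a1: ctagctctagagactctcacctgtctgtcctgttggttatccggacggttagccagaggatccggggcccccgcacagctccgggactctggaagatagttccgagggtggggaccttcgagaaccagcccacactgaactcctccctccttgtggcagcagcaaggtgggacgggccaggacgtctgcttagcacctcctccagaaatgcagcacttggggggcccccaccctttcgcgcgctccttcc
The Slc17a7 window holds 3 matches to GGGCGG, of which 2 overlap by their outer base, the Slc17a6 window holds 1, and the Slc32a1 window holds no match to the 4 motifs. GGGCGG occurs in 32.7% of the 32851 promoter windows of this length in the table, CCAAT in 33.8%, CAGCTG in 13.0% and TATAAA in 12.4%. CpG pairs number 9 for Slc17a7, 7 for Slc17a6 and 12 for Slc32a1, against a median of 6 over all windows. All 9 genes were matched in the promoter table.

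The levels of the 9 genes differed widely, and the order was led by an astrocyte carrier. In TPM, computed from the counts and the deposited gene lengths, Slc6a11 averaged 811 ± 85.3 TPM (SD, n = 3 mice) in controls and 916 ± 258 TPM (SD, n = 3 mice) in mutants. Slc32a1 followed at 217 ± 9.40 TPM (SD, n = 3) in controls and Slc17a6 at 191 ± 25.7 TPM (SD, n = 3), and the values of these neighbours overlapped in both genotypes. Below them stood Slc6a5 at 118 ± 8.74 TPM, Gad1 at 94.1 ± 10.9, Gad2 at 71.7 ± 7.73 and Slc6a9 at 58.3 ± 6.68 TPM (SD, n = 3 control mice), each separate from the next in the controls. Slc17a8 was at 4.60 ± 1.28 TPM and Slc17a7 at 0.414 ± 0.210 TPM in controls. The order was nearly kept in the mutants, where Slc6a9 stood above Gad2 with overlapping values, and Slc17a7, at 4.93 ± 2.36 TPM (SD, n = 3), came to overlap Slc17a8, at 6.65 ± 2.36 TPM (SD, n = 3). With merged exons of GENCODE M21 as the gene lengths, each gene kept its place in the order in both genotypes.

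**Figure D1:**
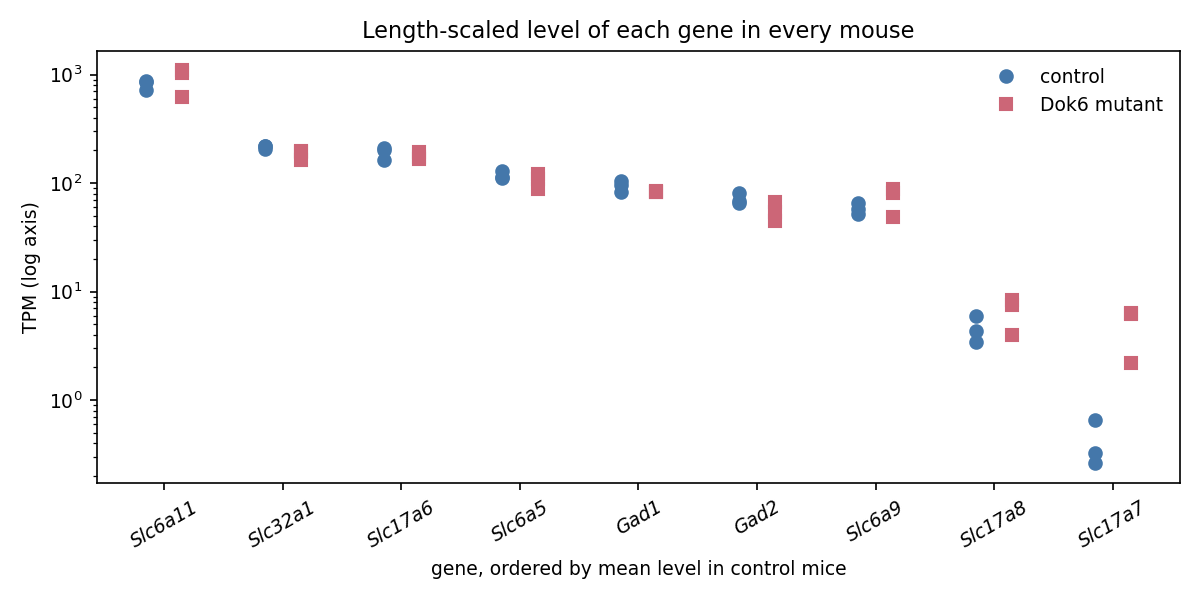
Level of each of the 9 genes in TPM (vertical axis, log scale) in the 3 control mice (circles) and the 3 Dok6 mutant mice (squares), ordered by the control mean. Slc6a11 stands highest at a control mean of 811 TPM, and Slc17a7 lowest, at 0.414 TPM in controls and 4.93 TPM in mutants.

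The vesicular glutamate transporter VGLUT1, encoded by Slc17a7 (ENSMUSG00000070570, GRCm38 chromosome 7, 45163949 to 45176142, plus strand), was measured with 17, 7 and 9 counts in control mice 1, 2 and 3 and with 61, 174 and 166 counts in mutant mice 1, 2 and 3. This equals 0.976, 0.401 and 0.515 CPM in the controls against 3.16, 9.49 and 8.80 CPM in the mutants. Every mutant stood above every control, mutant mouse 1 being the lowest of the 3. With these counts the gene passed the filter on low counts through the mutants, where it was high. The level was 11.2-fold higher in mutants, and the log2 fold change was 3.49 (SE 0.50, 95% interval 2.34 to 4.63, adjusted p = 0.00918 in edgeR's quasi-likelihood test over 17099 genes). Of the 9 genes, 1 (Slc17a7) passed both thresholds of the study's methods, an adjusted p-value under 0.05 and a log2 fold change above 2, where 1.08% of all genes tested did, and 1.19% when changes below -2 are counted too. The call was lost without control mouse 2 (log2 fold change 3.25, adjusted p = 0.0628, edgeR). In bulk RNA such as this, more cells of a type and more RNA per cell cannot be told apart.

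Markers of several cell types were also higher in mutants, but not all in the order of mutant mice that Slc17a7 had. Of 14 sensory neuron genes, 11 were higher in mutants with an adjusted p-value under 0.05 (8.62% of all genes tested), and the median log2 fold change was 3.76, against 0.01 for all genes. The list summed to 350, 304 and 305 CPM in controls and to 497, 1178 and 1136 CPM in mutants, and no gene of it was at 0 in every library. Avil, which encodes the actin-binding protein advillin of sensory neurons and was picked here after its values had been seen, was at 6.25, 5.22 and 4.18 CPM in controls and at 28.0, 94.5 and 90.1 CPM in mutants. The ratio of Slc17a7 to Avil lay between 0.0769 and 0.156 in controls and between 0.0977 and 0.113 in mutants, with overlapping values. Against the sum of the whole sensory list, to which Prph, Pou4f1 and Tac1 added most in controls, the ratio stayed higher in every mutant (0.00637 to 0.00806) than in every control (0.00132 to 0.00279). Prph is also on the motor neuron list, and Pou4f1 on a list of spinal excitatory neurons. Of 10 skeletal muscle markers, 7 were tested and all 7 were higher (median log2 fold change 4.74), and the list summed to 595, 321 and 109 CPM in mutants against 23.9, 23.3 and 15.6 CPM in controls. For Schwann cell markers, 6 of 12 were higher (median log2 fold change 1.28), and for nerve fibroblast markers, 3 of 7 tested were (median 2.27). The Schwann cell sum was 1608, 6963 and 656 CPM in mutants against 492.5, 315 and 1876 CPM in controls, with overlap. The sensory sum had the order of mutant mice of Slc17a7, and the muscle and Schwann cell sums did not. Some genes of the muscle, sensory, Schwann cell and nerve fibroblast lists had too few control counts for the filter on low counts. They entered the test through the mutants, where they were high, which bears on these shares and medians. The part of any of these cell types in the Slc17a7 result was not tested.

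Slc17a6, which encodes VGLUT2 (ENSMUSG00000030500, GRCm38 chromosome 7, 51622006 to 51671119), did not pass the test. It was at 242, 321 and 321 CPM in controls and at 248, 246 and 273 CPM in mutants, and the genotypes overlapped through control mouse 1. The log2 fold change was -0.20 (standard error 0.12, 95% interval -0.47 to 0.07, adjusted p = 0.265, edgeR). The ratio of Slc17a7 to Slc17a6 was between 0.00125 and 0.00403 in controls and between 0.0127 and 0.0385 in mutants, so that VGLUT1 transcripts remained a small part beside those of VGLUT2 in all 6 mice. The gene of VGLUT3, Slc17a8 (ENSMUSG00000019935, GRCm38 chromosome 10, 89574020 to 89621253, minus strand), was at 4.53, 5.85 and 8.24 CPM in controls and at 9.54, 10.9 and 4.93 CPM in mutants. Mutant mouse 3 fell among the controls, and the log2 fold change of 0.45 (standard error 0.32, 95% interval -0.29 to 1.18, adjusted p = 0.363, edgeR) did not pass.

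**Figure D2:**
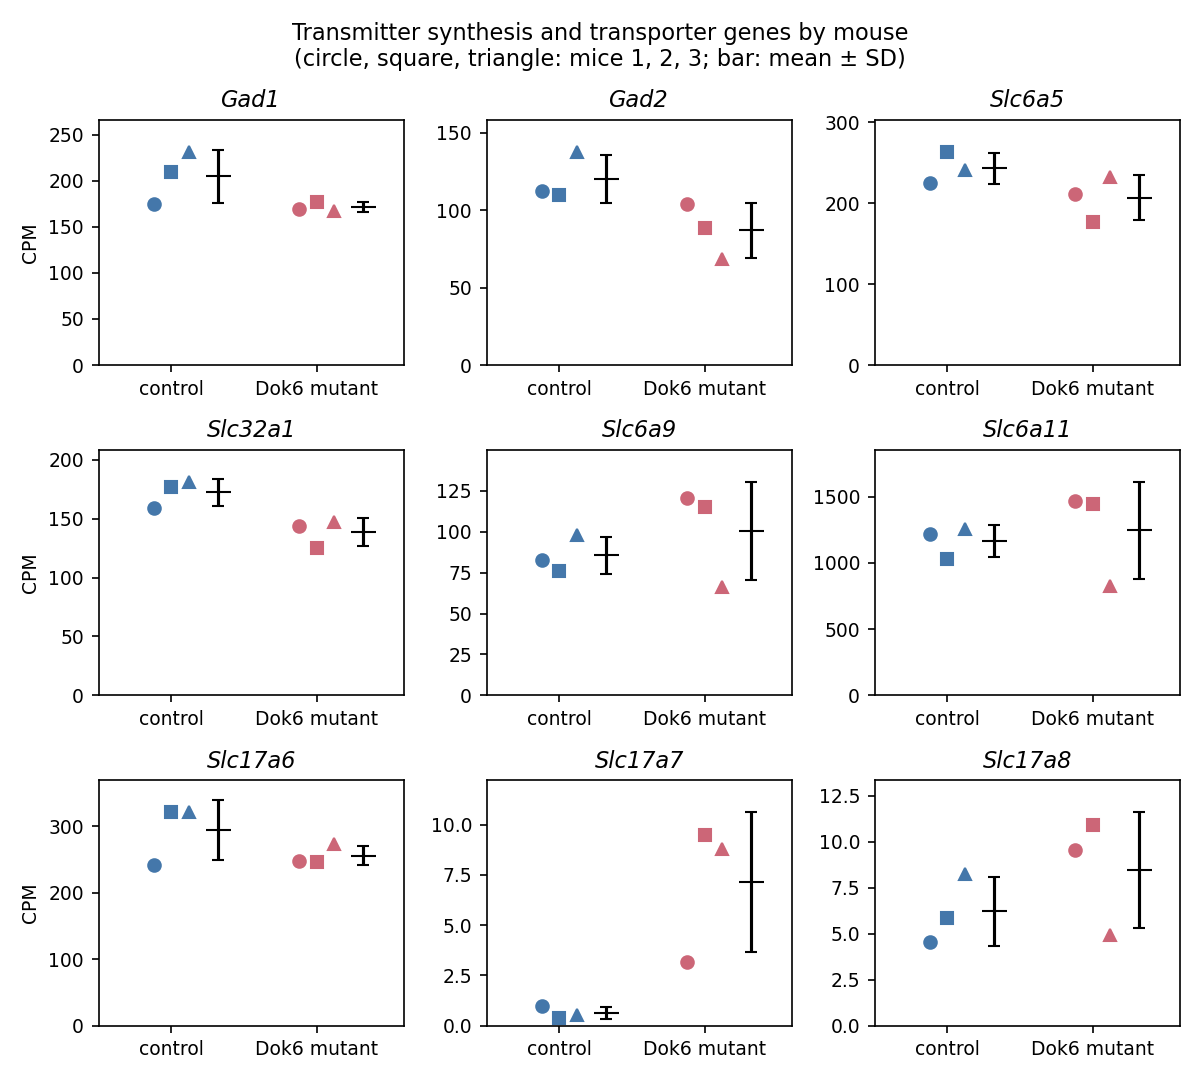
CPM of each of the 9 genes (vertical axes, linear from 0, scaled by the TMM method) in control and Dok6 mutant mice, with circle, square and triangle for mice 1, 2 and 3 and a bar for the mean ± SD (n = 3). For Slc17a7 all mutants stand above all controls, at 3.16 to 9.49 against 0.401 to 0.976 CPM, and for Slc32a1 and Gad2 all mutants stand below all controls.

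The 4 genes of inhibitory neurons had lower means in mutants, and 1 of them passed the test, where 6.01% of all genes tested were called lower. Slc32a1, which encodes the transporter VGAT (ENSMUSG00000037771, GRCm38 chromosome 2, 158610767 to 158615748), was at 159, 177 and 181 CPM in controls and at 144, 125 and 147 CPM in mutants, without overlap. It was 19.7% lower, and its log2 fold change was -0.32 (SE 0.09, 95% interval -0.52 to -0.11, adjusted p = 0.0487, edgeR). The adjusted p-value rose above 0.05 in 10 of 14 alternative settings, up to 0.41 with libraries scaled to the central neuron markers. It was 0.0533, 0.162 and 0.116 without control mouse 1, 2 or 3 and 0.104 and 0.157 without mutant mouse 1 or 2 (edgeR). The antisense gene Gm14205 overlaps exons of Slc32a1, and it had at most 2 counts in a library.

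Gad2, the gene of GAD65 (ENSMUSG00000026787, GRCm38 chromosome 2, 22622205 to 22693874), was at 113, 110 and 138 CPM in controls and at 104, 88.3 and 68.7 CPM in mutants. Its values did not overlap between the genotypes, but the log2 fold change of -0.46 (standard error 0.15, 95% interval -0.81 to -0.11) had an adjusted p-value of 0.0738 in edgeR. DESeq2 gave an adjusted p of 0.0196 for Gad2. Gad1, the gene of GAD67 (ENSMUSG00000070880, GRCm38 chromosome 2, 70553072 to 70602014), was at 174, 209 and 232 CPM in controls and at 169, 177 and 167 CPM in mutants. The overlap came from control mouse 1 and mutant mouse 2, and the log2 fold change was -0.26 (standard error 0.11, 95% interval -0.50 to -0.02, adjusted p = 0.124, edgeR). The ratio of Gad2 to Gad1 was 0.645, 0.525 and 0.595 in controls and 0.617, 0.498 and 0.411 in mutants. Mutant mouse 3 had the lowest share of GAD65 transcripts, and the genotypes overlapped.

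GlyT2, the neuronal glycine carrier encoded by Slc6a5 (ENSMUSG00000039728, GRCm38 chromosome 7, 49910146 to 49963856), was at 225, 264 and 240 CPM in controls and at 211, 177 and 232 CPM in mutants. The genotypes overlapped through mutant mouse 3, and the log2 fold change of -0.23 (standard error 0.11, 95% interval -0.49 to 0.02, adjusted p = 0.185, edgeR) did not pass. Slc6a5 and Slc32a1 were the pair of the 9 genes with the most alike profiles over the 6 libraries, with a root mean square difference of 0.08 between their centred log2 CPM values. The ratio of Slc6a5 to Slc32a1 lay between 1.33 and 1.49 in controls and between 1.41 and 1.58 in mutants. The balance of VGAT to VGLUT2 transcripts, Slc32a1 to Slc17a6, was 0.658, 0.552 and 0.564 in controls and 0.579, 0.508 and 0.538 in mutants, with overlap through mutant mouse 1.

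Marker lists of spinal neurons were measured in the same libraries. Of 11 tested genes for transcription factors of spinal inhibitory neurons, 10 had a log2 fold change below 0 and 3 were lower with an adjusted p-value under 0.05, where 6.01% of all genes were. These were Pax2, Gbx1 and Gbx2. The list summed to 450, 453 and 440 CPM in controls and to 374, 325 and 425 CPM in mutants. For 12 transcription factor genes of spinal excitatory neurons the median log2 fold change was -0.34, and for the 10 central neuron markers it was -0.17. In each of these 2 lists 0 genes were called. Every mutant stood below every control for 4 inhibitory, 6 excitatory and 3 central genes, and above for 1, 0 and 1. Among all genes tested these shares were 18.7% and 19.6%. Relative to the sum of the central neuron markers, Slc32a1 was between 0.0246 and 0.0249 in controls and at 0.0248, 0.0213 and 0.0225 in mutants, and the values overlapped. With the libraries scaled to these markers, the log2 fold changes were -0.12 for Slc32a1 (adjusted p = 0.41, edgeR) and 0.00 for Slc17a6 (adjusted p = 0.99), on a scale that moved the median of all genes to 0.21. The share of neurons in each library was not tested.

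The astrocyte carriers did not differ beyond the spread between mice. Slc6a11, which encodes the GABA carrier GAT3 (ENSMUSG00000030307, GRCm38 chromosome 6, 114131241 to 114249952), was at 1218, 1027 and 1252 CPM in controls and at 1468, 1444 and 825 CPM in mutants. Mutant mice 1 and 2 stood above all controls and mutant mouse 3 below them, with a log2 fold change of 0.10 (standard error 0.21, 95% interval -0.37 to 0.57, adjusted p = 0.775, edgeR). Slc6a9, the gene of the glycine carrier GlyT1 (ENSMUSG00000028542, GRCm38 chromosome 4, 117834506 to 117875198), showed the same order, at 82.4, 76.1 and 97.9 CPM in controls and at 120, 115 and 66.1 CPM in mutants. Its log2 fold change was 0.23 (standard error 0.21, 95% interval -0.24 to 0.71, adjusted p = 0.463, edgeR), and without mutant mouse 3 it was 0.46 (adjusted p = 0.0336). Exons of Slc6a9 are overlapped on the other strand by B4galt2, Ccdc24 and Gm17114, and Ccdc24 and Gm17114 match its transcripts at 95% identity or more, so that reads could be split between them. Ccdc24 had 9 to 22 counts in a library and Gm17114 had 0, beside 1248 to 2321 for Slc6a9. B4galt2, which only overlaps it, was lower in every mutant, at 145 to 153 CPM against 181 to 182 CPM in controls.

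Both carriers and the astrocyte markers had the same order of mutant mice. The 12 markers, which do not include Slc6a9 or Slc6a11, summed to 3316, 3030 and 3658 CPM in controls and to 4511, 4373 and 2411 CPM in mutants, so that mutant mouse 3 was again the lowest and mutant mice 1 and 2 the highest. The ratio of Slc6a11 to this sum lay between 0.326 and 0.367 in all 6 libraries, and that of Slc6a9 between 0.0249 and 0.0274. The ranges of the genotypes overlapped in both ratios, and the part of astrocyte number in either gene was not tested. Profiles of Slc6a9 and Slc6a11 differed by a root mean square of 0.09 log2 units, beside profile SDs of 0.34 and 0.32.

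**Figure D3:**
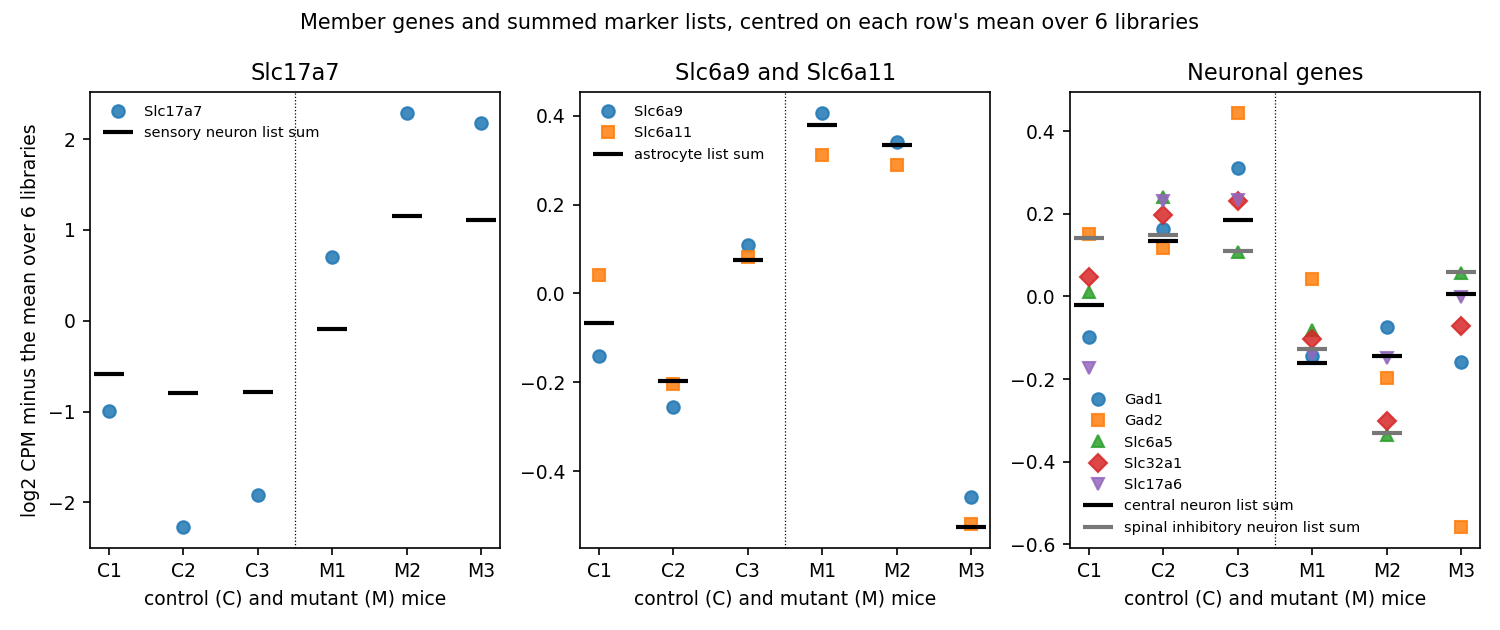
Log2 CPM minus its mean over the 6 libraries (vertical axes) in control mice C1 to C3 and mutant mice M1 to M3, for Slc17a7 with the summed sensory neuron markers, for Slc6a9 and Slc6a11 with the summed astrocyte markers, and for the neuronal genes with the sums of the central and spinal inhibitory neuron markers; dashes are the marker sums. Slc6a9, Slc6a11 and the astrocyte sum are lowest in M3 and highest in M1 and M2.

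Over the 9 genes the test called 1 gene up and 1 gene down, where 8.62% and 6.01% of all 17099 genes tested were called (14.6% in either direction). All 9 passed the filter on low counts, Slc17a7 through the mutants. The median log2 fold change of the 9 was -0.20, beside 0.01 for all genes, with 4 above 0 and 5 below. For 1 gene all mutants stood above all controls and for 2 all stood below, where this held for 19.6% and 18.7% of all genes (38.2% in either direction). For a single gene, the exact two-sided permutation p cannot go below 0.10 with 3 mice in each group, and this was the value for Slc17a7, Slc32a1 and Gad2.

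Of 25 further genes of GABA, glycine and glutamate handling, 24 passed the filter (Slc1a7 did not), 1 rose and 1 fell in the test, beside 8.62% and 6.01% of all genes tested, and their median log2 fold change was 0.01, as for all genes. Slc38a5, a transporter of glutamine and other neutral amino acids, was at 4.82, 4.19 and 8.64 CPM in controls and at 16.3, 13.6 and 14.4 CPM in mutants (log2 fold change 1.33, standard error 0.26, adjusted p = 0.0185, edgeR). All mutants stood above all controls. Got2, the mitochondrial aspartate aminotransferase, fell from 254, 273 and 292 CPM to 209, 218 and 223 CPM (log2 fold change -0.33, standard error 0.08, adjusted p = 0.0317, edgeR). Of the 24 genes, 5 were higher in every mutant than in every control and 5 were lower in every mutant, where groups did not overlap for 38.2% of all genes. Without control mouse 2 or without mutant mouse 1, 0 genes of the list passed in edgeR, so that the calls of Slc38a5 and Got2 were both lost, and without control mouse 1, control mouse 3 or mutant mouse 2, 1 gene passed. The astrocyte glutamate carriers GLT-1 (Slc1a2) and GLAST (Slc1a3), which the astrocyte list also holds, had log2 fold changes of 0.37 and 0.03 with adjusted p-values of 0.309 and 0.936 in edgeR.

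**Figure D4:**
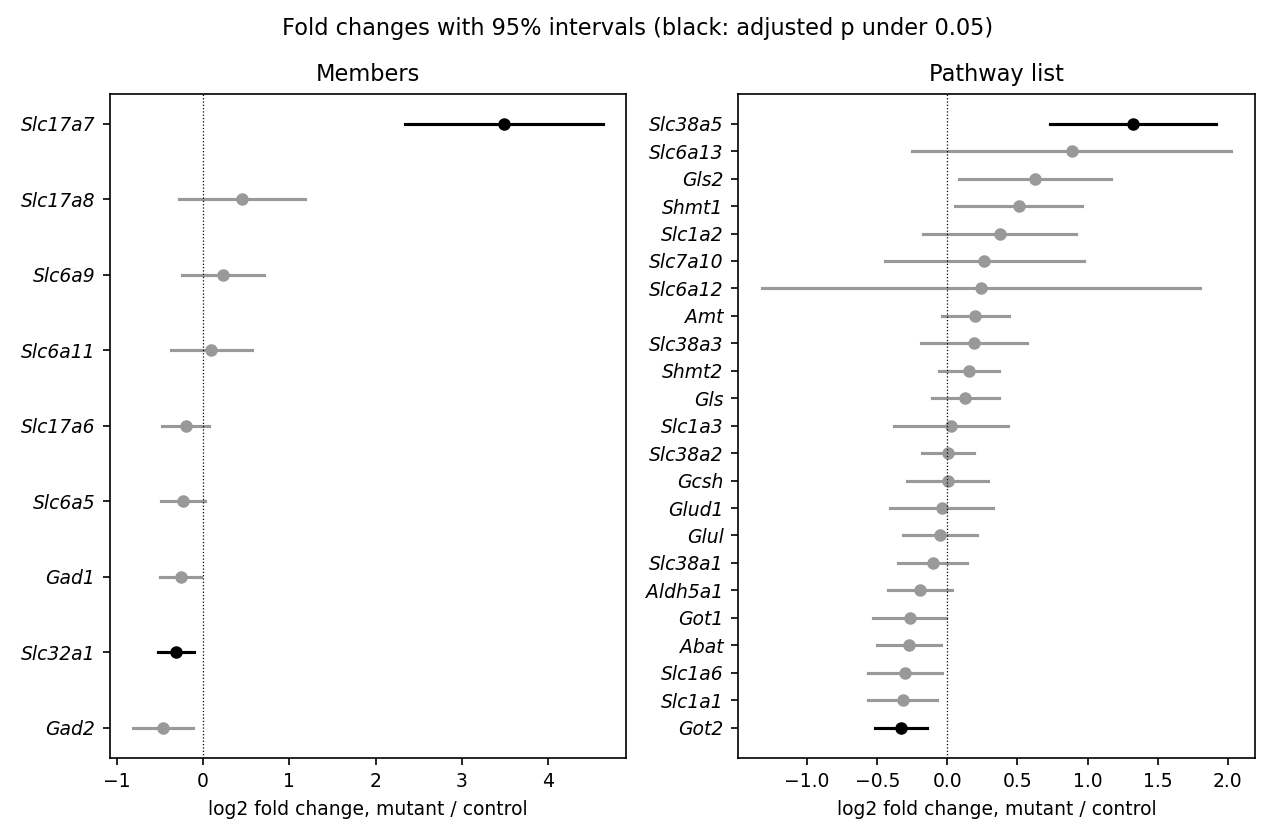
Log2 fold changes of mutant over control (horizontal axes) with 95% intervals for the 9 genes and for 23 of the 24 tested genes of the pathway list (1 is not reported here), black where the adjusted p-value was under 0.05. Slc17a7 at 3.49 and Slc38a5 at 1.33 lie to the right, and Slc32a1 and Got2 lie to the left of 0.

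Genes of other transmitters gave a point of comparison, and 10 of 15 passed the filter. Of these, 2 passed the test and both were lower, beside 6.01% of all genes called lower and 14.6% called in either direction. Slc18a3, the vesicular acetylcholine transporter of motor neurons, was at 62.7, 49.0 and 55.0 CPM in controls and at 41.2, 43.4 and 35.7 CPM in mutants (log2 fold change -0.47, standard error 0.12, adjusted p = 0.0358, edgeR). The other tested genes of acetylcholine synthesis and uptake, Chat and the choline transporter gene Slc5a7, had log2 fold changes of 0.15 and -0.15 with adjusted p-values of 0.788 and 0.557 in edgeR. Slc17a9, a vesicular nucleotide transporter of the same family as the VGLUT genes, had 21, 22 and 22 counts in controls and 2, 9 and 3 in mutants (log2 fold change -2.29, standard error 0.52, adjusted p = 0.0259, edgeR). With these counts the gene passed the filter through the controls.

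The genes most like each of the 9 were sought among 15675 genes with a mean of at least 1 CPM, by the root mean square difference of centred log2 CPM over the 6 libraries. For Slc17a7 these were Kcnk18, which encodes the potassium channel TRESK, at 0.11, Trpv1, the capsaicin receptor, at 0.19, and Isl2, a transcription factor gene, at 0.20. Kcnk18 and Trpv1 are known from sensory neurons, and Trpv1 is on the sensory list and Isl2 on the motor neuron list. All 3 were higher in every mutant, with log2 fold changes of 4.66, 3.76 and 2.98. This follows from their having been picked by likeness to Slc17a7. For Slc6a11 the 3 genes were Dennd4c, Sox2 and Mpp5 (0.05 to 0.06), and for Slc6a9 they were Acsbg1, AI849053 and Sfxn5 (0.03 to 0.06). Slc32a1 was most like Araf, Rnf14 and Gpr85 (0.02 to 0.03), Slc6a5 most like Pcdh19, Pdcd5 and Rnf114 (0.02 to 0.03), and Gad1 most like Opcml, Abi1 and Napb (0.02). For Gad2 they were Gm7628, Zfp560 and Slc22a4 (0.06 to 0.09), for Slc17a6 Nrsn1, Grm5 and Tpgs2 (0.03 to 0.04), and for Slc17a8 Hrasls, Rnf128 and Kcnip3 (0.07 to 0.11). With 6 libraries these distances describe likeness and carry no test.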

How the data were processed

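RNA-seq was analysed for 3 control and 3 Dok6 mutant nerves (postnatal day 3), whose columns were matched to the labels by genotype and mouse number. The authors deposited raw read counts per gene, with a gene length in bases. The labels name mm10 as the build, and the aligner, counting tool and use of strand are not given in the sources used here. The methods name a directional NEBNext Ultra kit and the labels one without that word.

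Genes were kept by filterByExpr (17099 of 54532), scaled by TMM and compared with edgeR 4.0.16 in R 4.3.3 (glmQLFit and glmQLFTest over all 6 libraries, no block), with Benjamini-Hochberg adjustment over all genes tested. DESeq2, used by the study, limma voom, other scalings and filters, a replicate block and leaving out each mouse were alternatives. Scaling to central neuron markers and merged exon lengths were added after the data were seen. Standard errors follow from the F statistic. CPM are TMM-scaled. TPM used the deposited lengths. Log2 CPM for likeness had 0.5 added. Positions came from GENCODE M21 (54495 identifiers matched, 37 not) and shared sequence from BLAST 2.17.0 (95% identity over at least 200 bases). Promoters came from RefSeq (GRCm38.p6).

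The members and the gene lists were chosen with earlier results of these data known. Named genes are the 9 members, the pathway and other transmitter genes with an adjusted p-value under 0.05, the 3 genes most like each member, Dok6 and up to 3 leading markers per list; Chat, Slc5a7, Slc1a2, Slc1a3, Ptf1a, Gbx1, Gbx2, Avil and overlapping genes, and the markers given for the tissue check, were added after their values were seen. Counts of each pair of libraries differed beyond sampling noise (chi-square per degree of freedom of 8.86 or more), so none was merged. The study calls the controls littermates of the mutants, and the labels do not say which mice shared a litter. Some genes of the lists are not reported here by name. Statistics were tested on simulated data.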

Additional observations from a re-analysis of the deposited data

How the results depend on the processing

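Of 125 log2 fold changes of the 9 genes under 14 alternatives, 107 kept their direction and side of the threshold of 0.05 on the adjusted p-value, 11 fell out of the call, 4 entered it and 3 reversed, with the cause not tested. The reversed values were those of Slc6a11 without mutant mouse 1 (-0.0384) and without mutant mouse 2 (-0.0227), and of Slc17a6 with scaling to central neuron markers (0.0023). Over all fits that left out a mouse, Slc6a11 ranged from -0.0384 to 0.32. Slc17a7 was called in 12 of 13 fits, with log2 fold changes from 3.23 to 3.94, and Slc32a1 in 4 of 14. In place of 2 of the 9 genes, 3 (with Gad2) were called with DESeq2 and with no filter, and 1 was called with limma voom, with upper-quartile scaling and with scaling to central neuron markers. With at least 10 counts in every library 0 were called in edgeR, at either fold threshold. This filter removes Slc17a7, with its 7 and 9 counts in controls, and Slc32a1 was tested and missed the threshold (log2 fold change -0.31, adjusted p = 0.0517, edgeR). That filter also left 76 genes called beyond a log2 fold change of 2 among all genes, against 204 as reported and 364 with no filter.

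Leaving out each mouse in turn, the number of the 9 genes called ranged from 0 to 3 and beyond a log2 fold change of 2 from 0 to 1. For the pathway list it ranged from 0 to 4, and for all genes from 68 to 2904, or 27 to 293 beyond a log2 fold change of 2, against 2502 and 204. The lowest values came without control mouse 2 (0 of the 9 genes, 68 of all genes). Higher genes made up 58.9% of all calls as reported, 94.5% with scaling to central neuron markers, 76.9% with the block, and 82.4%, 78.3% and 75.9% without control mouse 2, mutant mouse 1 and mutant mouse 2.

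With the replicate number as a block, 1 of the 9 genes (Slc17a7, log2 fold change 3.37, adjusted p = 0.0403, edgeR) and 1 of the pathway list were called, with 562 of all genes and 134 of these beyond a log2 fold change of 2. The numbers are not shown to pair mice: deviations of same-numbered mice correlated at -0.27 to -0.01 across genes, and 0 of 6 mice correlated best with their own number. Depth limits Slc17a7, with at most 17 counts in a control, more than the other 8 genes.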
